A study of Homo sapiens with 19 samples.

Results

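This account covers RNA polymerase II (Pol II) occupancy set beside RNA at 20092 gene loci of mock-transfected U2OS cells, out of 20850 loci in the deposited RNA table. U2OS is an established human osteosarcoma line, grown in DMEM with Tet-approved serum. The mock cells received an siRNA against GFP, and the cells used for comparison received an siRNA against EP400, which encodes a nucleosome remodelling ATPase that works together with the acetyltransferase TIP60. Both were harvested 72 hr after transfection. The series has 19 samples. Here 1 Pol II chromatin immunoprecipitation (ChIP) library and 1 RNA-seq library of mock cells were used, with lists for MED26, H2AZ, H3.3, H3K18ac and H3K4me1 from mock cells, a list for EP400 from untreated cells, and the Pol II and RNA data after EP400 siRNA. Each condition had 1 library per measurement, so the shares below carry no replicate error and no test between conditions was made. Their 95% Wilson intervals cover counting error over loci only, and loci share the same 2 libraries.

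A locus is a stretch of the genome to which the RNA table assigns 1 or more overlapping genes. Its RNA level is the sum of the deposited FPKM (an abundance per transcript length and per total of mapped fragments) of its rows of 200 nt or longer whose mock quantification had not failed. A locus counted as having Pol II where at least 1 bp of the Pol II peak list lay within 2 kb of either end, or in the interior between those windows. The table gives no strand, so the start and the finish of a gene were not distinguished. "With RNA" means 1 FPKM or more, and "little or no RNA" means under 0.1 FPKM. The peak list has no heights, and the depth of all libraries is unknown, so a locus without a peak is one where none was listed and not one shown to be free of Pol II.

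Pol II transcribes protein-coding genes and most long noncoding RNA genes. It assembles at promoters with general factors and Mediator, of which MED26 is a subunit, often pauses shortly after initiation, and is released into the gene body for elongation. Steady-state RNA also depends on how fast a transcript decays, so occupancy and RNA level are related but different quantities.

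The promoters of 4 loci are shown because they stand for the kinds of loci compared below and differ in base composition. They come from RefSeq (GRCh38.p14), span 250 bases before to 50 after the annotated start, and are written 5′ to 3′ on the gene's strand. Capitals mark matches to 3 short motifs on either strand. The core of a TATA box was searched as TATAAA. The GC box, to which Sp-family factors bind, was searched as GGGCGG. The last motif is the CCAAT box. SLC25A6 (chrX:1392064-1392363, minus strand) and COX7B (chrX:77899218-77899517, plus strand) had abundant RNA and no Pol II peak. PSD2-AS1 (chr5:139746174-139746473, minus strand) had a Pol II peak and almost no RNA, and MIDN (chr19:1248333-1248632, plus strand) had Pol II over most of its length.
SLC25A6: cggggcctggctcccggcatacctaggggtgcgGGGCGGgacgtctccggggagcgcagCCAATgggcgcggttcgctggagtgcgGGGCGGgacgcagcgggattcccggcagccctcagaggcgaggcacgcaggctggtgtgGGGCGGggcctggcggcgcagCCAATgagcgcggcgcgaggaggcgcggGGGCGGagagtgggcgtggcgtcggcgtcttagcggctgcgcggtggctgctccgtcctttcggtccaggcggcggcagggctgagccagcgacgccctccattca
COX7B: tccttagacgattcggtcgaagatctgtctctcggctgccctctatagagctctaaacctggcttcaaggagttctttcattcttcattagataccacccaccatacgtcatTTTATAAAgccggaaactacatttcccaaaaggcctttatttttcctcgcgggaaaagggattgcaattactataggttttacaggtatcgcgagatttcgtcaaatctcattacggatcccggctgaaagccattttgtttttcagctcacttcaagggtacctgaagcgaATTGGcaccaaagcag
PSD2-AS1: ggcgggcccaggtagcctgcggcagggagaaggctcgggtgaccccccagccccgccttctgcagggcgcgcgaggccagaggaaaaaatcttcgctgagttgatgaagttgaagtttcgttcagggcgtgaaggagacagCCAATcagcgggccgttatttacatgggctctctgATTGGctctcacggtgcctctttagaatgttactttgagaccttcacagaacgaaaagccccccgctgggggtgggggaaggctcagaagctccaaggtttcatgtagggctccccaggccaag
MIDN: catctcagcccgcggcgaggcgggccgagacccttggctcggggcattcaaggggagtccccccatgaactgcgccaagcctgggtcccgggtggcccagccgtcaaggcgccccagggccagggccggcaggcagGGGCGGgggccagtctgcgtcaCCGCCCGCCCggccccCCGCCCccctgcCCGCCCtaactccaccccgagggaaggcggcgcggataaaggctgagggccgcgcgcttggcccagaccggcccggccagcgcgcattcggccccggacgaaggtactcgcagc

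SLC25A6 had 40 CpG dinucleotides in this window and 4 GC boxes, and MIDN had 33 and 5. COX7B had 14 CpG, no GC box, and a TATA core read on both strands in overlapping letters. PSD2-AS1 had 15 CpG and 2 CCAAT matches.

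Most loci with RNA had Pol II, and most loci with little or no RNA had none. Of the 20092 loci, 67.6% had Pol II and 62.3% had it at an end, while 51.1% had RNA and 30.6% had little or none. Among the 10258 loci with RNA, 9118 (88.9%) had Pol II at an end, 540 (5.26%) had it in the interior only, and 600 (5.85%, interval 5.41 to 6.32%) had none. Among the 6148 loci with little or no RNA, 1247 (20.3%, interval 19.3 to 21.3%) had Pol II, 979 of them at an end. These discordant classes made up 2.99% and 6.21% of all loci. The 3686 loci between 0.1 and 1 FPKM had Pol II in 72.4% of cases. The median RNA level was 4.18 FPKM at loci with Pol II at an end, 1.07 FPKM with Pol II in the interior only, and 0.0061 FPKM at loci with none.

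The share of loci with Pol II at an end climbed with RNA over the low levels and then changed little, while the spread of Pol II over the locus went on climbing. Pol II was at an end of 6.80% of the 3428 loci at 0 FPKM. In deciles of the loci above 0, from low to high RNA, the share was 21.3%, 41.4%, 63.6%, 76.2% and then 84.5% in decile 5, whose median was 1.59 FPKM. From there it went to 93.8% in the highest decile, whose median was 142 FPKM.

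**Figure D1:**
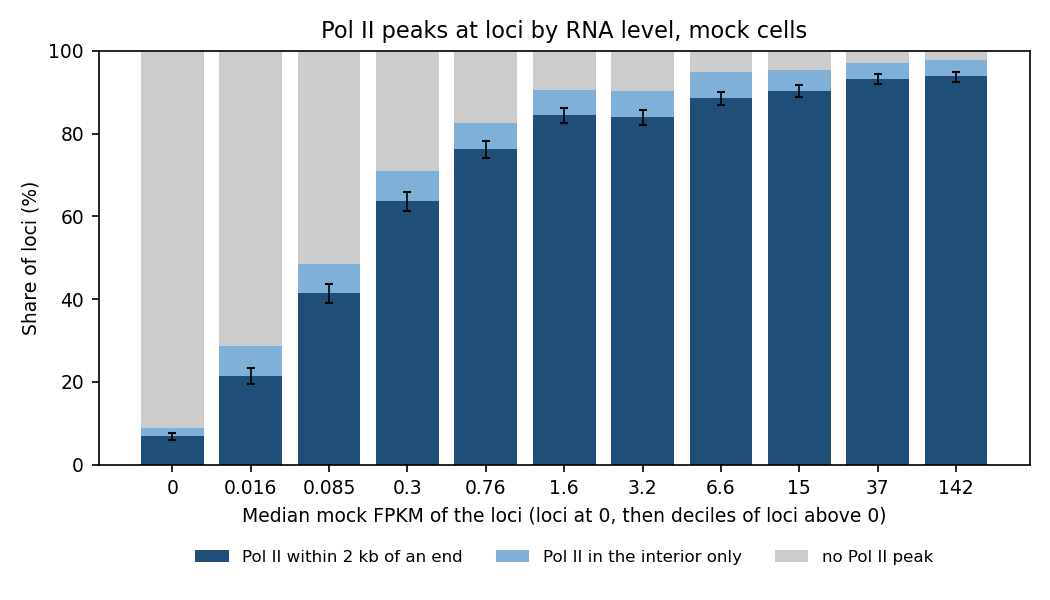
Share of loci (%) with Pol II within 2 kb of an end, in the interior only, or with no peak, for loci at 0 FPKM and for deciles of the loci above 0, labelled by median FPKM. Error bars on the dark segment are 95% Wilson intervals. The dark segment stands at 6.80% at 0 FPKM, 84.5% in decile 5 and 93.8% in decile 10.

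Coverage of the other end and of the interior climbed with RNA and was most frequent at the highly expressed loci. Among loci of 10 kb or more, both ends had Pol II in 0.41% of loci at 0 FPKM, 5.75% of decile 5, 20.2% of decile 8, and 42.8% of the highest. The interior bases covered by Pol II were 0.028% of the total at 0 FPKM, 0.20% in decile 5, 0.68% in decile 8, 1.25% in decile 9 and 3.04% in the highest. Where an end had Pol II, the median length covered at the ends was 400 bp at 0 FPKM, 1100 bp in decile 5 and 1800 bp in the highest. A peak at the far end can belong to a neighbouring gene. Among loci of 10 kb or more with no other locus within 10 kb, both ends had Pol II in 0.17% of loci at 0 FPKM and, by quintiles of the loci above 0, in 0.30%, 1.34%, 3.47%, 6.43% and 19% of them, so the climb was seen there too, at lower values.

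**Figure D2:**
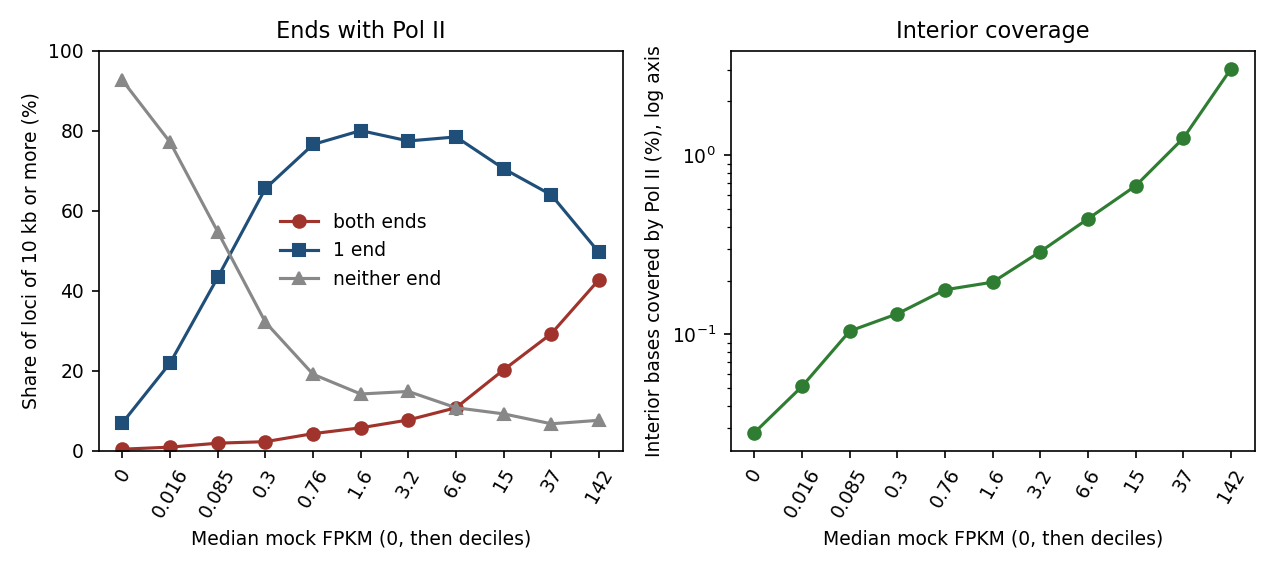
Left, share of loci of 10 kb or more (%) with Pol II at both ends, 1 end or neither. Right, share of interior bases covered by Pol II (%, log axis). Both are plotted against the median FPKM of loci at 0 and of deciles above 0. Both-end coverage reaches 42.8% and interior coverage 3.04% in the highest decile, against 5.75% and 0.20% in decile 5.

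Across all 20092 loci the covered length at the ends followed RNA with a Spearman rho of 0.69, as a description over loci that share 2 libraries. In quintiles of locus size, from short to long, rho was 0.73, 0.76, 0.72, 0.60 and 0.50. Among the 9118 loci with RNA and Pol II at an end it was 0.31. The covered share of the interior, over 16618 loci with an interior of 1 kb or more, had a rho of 0.35.

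Of the 30760 Pol II peaks, 50.8% touched a locus end, 28.4% lay only inside loci and 20.9% touched no locus. Peaks at ends had a median width of 800 bp, and the others 200 bp. The ends of loci with both RNA and Pol II held 55.2% of all bases in the list, and their interiors 18.1%.

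The 10 loci with the most RNA all had Pol II at an end. RPLP1, a protein of the ribosomal stalk, had 15291 FPKM and 1500 bp of Pol II. GAPDH, a glycolytic enzyme, had 12383 FPKM and 6641 bp, LGALS1 (galectin-1) had 8753 FPKM and 3800 bp, and ACTB (beta-actin) had 8214 FPKM and 5500 bp. The order of RNA levels was therefore not the order of covered lengths among them. Among loci with an interior of 5 kb or more, the highest interior coverage was found at other genes. LFNG, a glycosyltransferase that modifies Notch receptors, had 11709 of its 12646 interior bases covered (92.6%) at 223 FPKM. MIDN (midnolin) had 71.2% at 19.6 FPKM, the locus of the transcription factor MAFK with TMEM184A 71.1% at 133 FPKM, and the locus of PKMYT1, a kinase that inhibits CDK1, 63.8% at 228 FPKM. FSCN1, an actin-bundling protein, had 55.5% at 601 FPKM, and ZC3H12A, an RNase that degrades inflammatory transcripts, 50.9% at 9.73 FPKM. RNA levels at these strongly covered loci thus ranged widely. The authors' confidence limits, given per row and summed here over the rows of each locus, were wide as well. They ran from 0 to 945 FPKM for LFNG, and at 43.5% of loci with RNA the summed lower limit was 0. Such sums, used for all locus limits given here, are not confidence limits of the locus.

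Loci with RNA and Pol II in the interior only were mostly composite. More than 1 gene was present in 63.7% of these 540 loci, compared with 14.8% of the 9118 with Pol II at an end. Single-gene examples were MAGED1, a MAGE-family protein, with 220 FPKM and 1900 bp of interior Pol II, FHL2, a LIM-domain protein, with 202 FPKM and 1200 bp, and PHF19, a Polycomb-associated protein, with 124 FPKM and 3200 bp. These examples were chosen after their values were seen.

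The 600 loci with RNA and no Pol II had a median of 3.71 FPKM, against 9.80 FPKM at the 9658 loci with RNA and Pol II, and 26 of them were at 100 FPKM or more. Many were intronless loci, pseudogenes or loci whose transcripts the table lists at more than 1 place. These groups made up 231 of the 600 (38.5%), against 4.04% of loci with RNA and Pol II. Intronless means a locus within 10 bp of the length of its longest transcript, which does not by itself make it a copy. Similar genes with different names, each listed at 1 place, were not grouped as repeated. Of the loci with RNA that are listed at more than 1 place, 91 of 124 (73.4%) lacked Pol II. The share was 43.3% of 247 pseudogenes and 32% of 350 intronless loci, against 3.83% of the 9637 loci with RNA that were none of these. The grouping was chosen after the loci were seen. How reads that align to several places were treated is not given in the sources used here, and its part in these counts was not tested.

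Among these loci ANXA2P2, a processed pseudogene of annexin A2, had 559 FPKM, and the ribosomal protein pseudogenes RPL13AP20 and RPL23P8 had 467 and 242 FPKM. UQCRHL, an intronless copy of a complex III subunit, had 186 FPKM. A pair of near-identical loci on chromosome 16 with BOLA2B, SLX1B and a SULT1A gene had 195 and 194 FPKM. RNA levels of near-identical copies are uncertain, since how the counting divided fragments among them is not known. The summed lower limit was 0 for ANXA2P2 and 15.1 FPKM for RPL13AP20. At its ends RPL13AP20 held 1260 bp of MED26, 270 bp of H3.3, 2290 bp of H3K18ac and 870 bp of H3K4me1. ANXA2P2 held 200 bp of H3K4me1. RPL23P8, UQCRHL and the pair on chromosome 16 had no peak of the other mock lists or of EP400.

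Some of the highest loci with a gene symbol are not copies by these criteria. A locus with no symbol in the RefSeq tables, also no copy by these criteria, was higher than they are, at 678 FPKM. SLC25A6, a mitochondrial ADP/ATP carrier (chrX:1505045-1511039, hg19), had 359 FPKM, with limits of 112 and 606, and no peak of any list. COX7B, a subunit of cytochrome c oxidase (chrX:77154961-77160881, hg19), had 322 FPKM, with limits of 29.2 and 614. It had no Pol II but held 200 bp of MED26 and 300 bp of H2AZ at an end. The long noncoding RNA genes CYTOR and MIR4435-2HG on chromosome 2, which resemble each other in sequence, had 245 and 223 FPKM, each with 300 bp of H3K18ac and nothing else. The locus of the tautomerase DDT and its relative DDTL had 239 FPKM.

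**Figure D3:**
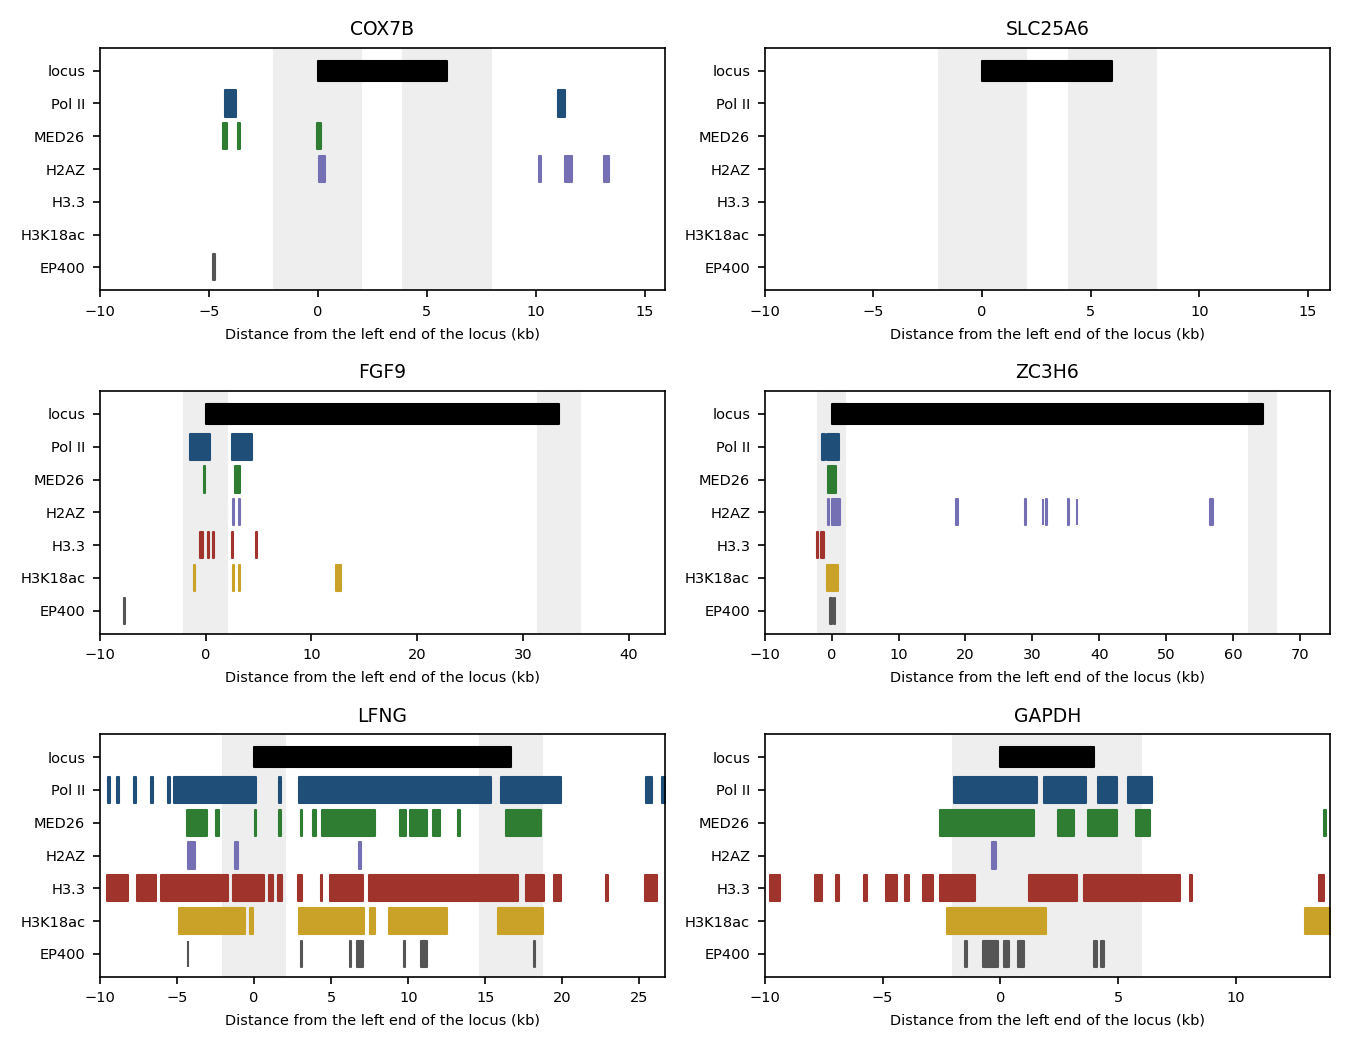
Peaks of 6 lists around 6 loci, drawn to scale against distance from the left end of the locus (kb). Black bars are loci and grey bands the windows of 2 kb on each side of the ends. COX7B and SLC25A6 had RNA and no Pol II at the locus, FGF9 and ZC3H6 had Pol II and under 0.1 FPKM, and LFNG and GAPDH had both.

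Loci with RNA and no Pol II also lay in rows. Of the 600, 94 (15.7%) fell into 15 runs of 4 or more successive loci with RNA and no Pol II, where loci with less RNA were skipped. In 6 of these runs the stretch between the loci held 100 to 8600 bp of mock Pol II, and in 9 it held none. The share of runs to be expected by position alone was not tested. Runs of 10 loci were the longest and there were 2, of which 1 covered histone genes of chromosome 1, with 5 repeated loci among its 10. The other lay over chrX:192991-2659350 (hg19), from PLCXD1 to CD99, with SLC25A6 among them. This stretch is in the pseudoautosomal region, which X shares with Y, and held 0 bp of every list, the Pol II list after EP400 siRNA included. Runs with 0 bp in every list also covered SMN1, SERF1B and GTF2H2 on chromosome 5 (7 loci), NPIPA and NOMO1 loci on chromosome 16 (6 loci), and C4A, which encodes complement component 4, with its neighbours on chromosome 6 (4 loci). A run of 9 protocadherin beta genes on chromosome 5, at 1.11 to 16.0 FPKM, held 3200 bp of H2AZ and no Pol II. On chromosome X, 60 of 359 loci with RNA lacked Pol II (16.7%, interval 13.2 to 20.9%), against 5.46% of 9899 on chromosomes 1 to 22. The peak lists name no X or Y, and the values on X take their chromosome 23 as X. Without X and Y the total was 540. Of the 3391 loci with RNA and no other locus within 10 kb, 309 (9.11%) lacked Pol II, against 5.85% of all loci with RNA.

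Most loci with RNA and no Pol II were bare of other peaks too. No peak of MED26, H2AZ, H3.3, H3K18ac, H3K4me1 or EP400 was listed at 53% of the 600, against 0.97% of loci with RNA and Pol II. MED26 was at 14.7% against 93.0%, H2AZ at 24% against 87.5%, and H3K18ac at 24.7% against 86.8%. Within the 600 the kinds differed: 81.0% of the 231 copied or intronless loci and 35.5% of the other 369 had no peak of any of those lists. In those 369, H3.3 was at 36.3% and H2AZ and H3K18ac each at 33.9%.

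The 369 loci with introns and no second listing had a median of 3.05 FPKM, and 8 of them were at 100 FPKM or more. Beside the genes named above they included MAGEA6, a cancer-testis antigen, at 107 FPKM, MT1G, a metallothionein, at 56.4 FPKM, the hair keratin KRT83 at 44.4 FPKM and IFITM1, an interferon-induced antiviral membrane protein, at 43.2 FPKM. These 4 were picked after their values were seen. None had MED26, and IFITM1 had 100 bp of H3.3.

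The 1247 loci with Pol II and little or no RNA looked different. Protein-coding loci made up 73.8% of them and long noncoding RNA loci 20.8%, against 67.9% and 22.5% of the 4901 loci with neither. Copied or intronless loci were 6.09% of them, against 22.9% of loci with neither. Their Pol II was sparse, with a median of 500 bp at the ends and interior together, against 1400 bp at loci with RNA and Pol II. Both ends were covered in 28 of 928 loci of 10 kb or more (3.02%). Of the 979 with Pol II at an end, 796 (81.3%) had at least 1 Pol II peak, at an end or inside, more than 2 kb from every locus with RNA. The 268 with Pol II in the interior only all met this by position, since their peaks lie more than 2 kb inside the locus. Any of the 979 with an interior peak met it by position too, and the share for peaks at the ends alone was not computed. The 796 and the 268 together made 85.3% of the 1247. With no other locus within 10 kb, 566 of 3711 loci with little or no RNA (15.3%) still had Pol II.

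Other peaks were common at these loci. H2AZ was at 75.7% of them, against 29.8% of loci with neither RNA nor Pol II. MED26 was at 52.6% against 5.47%, H3K18ac at 56.6% against 16.5%, H3.3 at 54.9% against 13.4%, H3K4me1 at 41.5% against 15.9%, and EP400 at 24.1% against 8.20%. Loci with Pol II and RNA had still higher shares, with H2AZ at 87.5% and MED26 at 93.0%. Among the 566 loci with no neighbour within 10 kb, H2AZ was at 82.7% and MED26 at 47.5%, against 32.3% and 5.21% of 3145 such loci with neither. The loci with Pol II were longer, with a median of 30515 bp against 12316 bp at loci with neither, and a longer locus offers more bases to any list. With peaks at the ends alone, H2AZ was at 60.3% against 15.9% and MED26 at 38.9% against 2.33%. The end windows have the same length at most loci, but at the shortest loci they overlap and cover fewer bases. The part of these short loci in the shares was not tested.

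**Figure D4:**
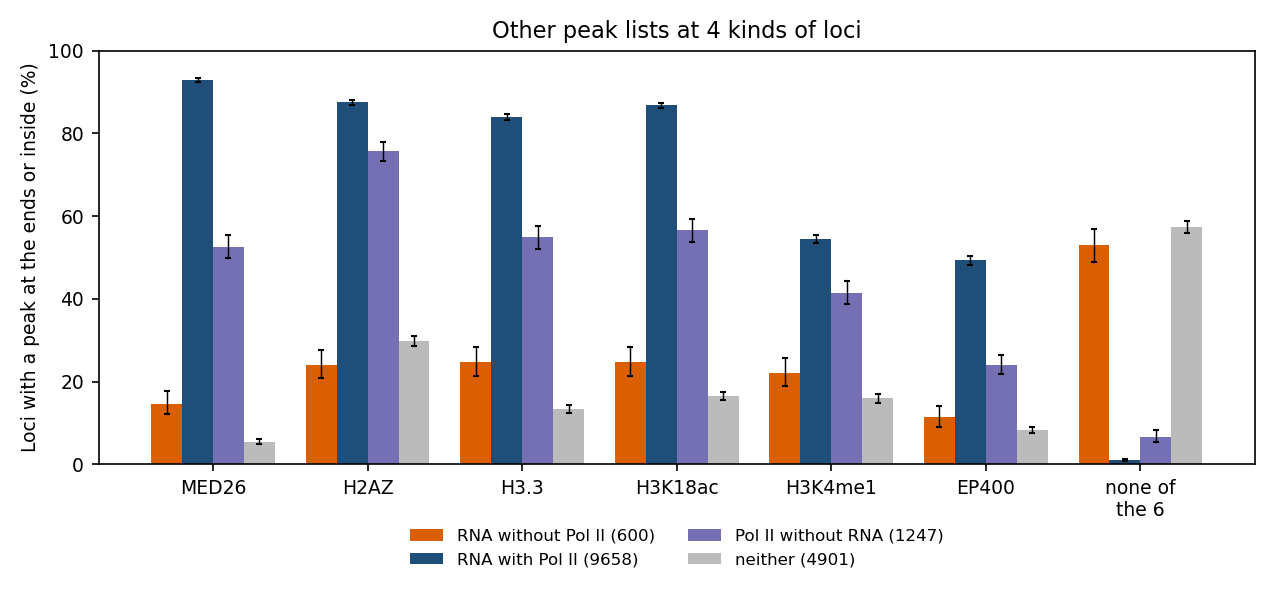
Share of loci (%) with a peak of each list at the ends or inside, for loci with RNA and no Pol II, RNA with Pol II, Pol II and little or no RNA, and neither, with 95% Wilson intervals and the number of loci in the legend. H2AZ stands at 24%, 87.5%, 75.7% and 29.8%, and MED26 at 14.7%, 93.0%, 52.6% and 5.47%.

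The 12 most covered isolated loci with under 0.1 FPKM had 1900 to 4600 bp of Pol II. PCBP3, an RNA-binding protein, had 4600 bp of interior Pol II at 0.035 FPKM. FGF9, a fibroblast growth factor of embryonic development (chr13:22245215-22278640, hg19), had 1900 bp at its left end and 1900 bp inside at 0.082 FPKM. CELF4, a neural splicing regulator, had 3500 bp at 0.021 FPKM, and MIR9-2HG, the host transcript of a miR-9 gene, 3300 bp at 0.045 FPKM. SOX1, a neural transcription factor, had 2300 bp, all interior, at 0.015 FPKM. NPAS3, a neuronal transcription factor, had 1900 bp at its left end at 0.0035 FPKM, and OPCML, a neural adhesion molecule, 1900 bp inside at 0.062 FPKM. At an end alone, ZC3H6, a zinc finger protein, had 2300 bp at 0.033 FPKM, with 1300 bp of MED26 and 1600 bp of H3K18ac. PSD2-AS1, an antisense noncoding gene, had 2308 bp at 0.040 FPKM. LINC00939 had 2200 bp at 0.021 FPKM. CIDEA, a lipid droplet protein, had 1494 bp at an end and 700 bp inside. PEBP4, with its antisense gene, completed the 12 with 3600 bp at 0.057 FPKM. Whether the kit's strand was used in counting is not given in the sources used here, so reads from a gene and its antisense partner cannot be told apart.

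CpG content and GC boxes were higher in the classes with Pol II than in those without. RefSeq promoters were found for 276 of 460 single-gene loci with RNA and no Pol II and 6364 of 7902 with RNA and Pol II. For Pol II without RNA they were found for 806 of 1105, and for neither for 3172 of 4473. Copied or intronless loci were not separated here. The median ratio of observed to expected CpG was 0.44 at loci with RNA and no Pol II against 0.85 at loci with RNA and Pol II, and 0.66 at loci with Pol II and no RNA against 0.25 with neither. A GGGCGG match on either strand was present in 37.0% against 74.8%, and in 54.7% against 22.6%, beside 44.6% of the whole promoter table. TATAAA ran the other way, with 16.7% against 4.95%, and 9.43% against 21.7%, beside 12% of the table. CCAAT varied least, with 42.8% against 36.8%, and 34.2% against 38.8%, beside 35.7%. SLC25A6, shown above, is rich in CpG, so the class is not uniform. It lies, however, in the run on X that held no peak of any list.

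Gene lists gave the same contrast by function, beside 67.6% of all loci with Pol II and 51.1% with RNA. The lists were drawn up with earlier results of these data known and describe these loci only. Every locus had Pol II in the lists of ribosomal protein genes (76 loci), housekeeping genes (19), heat shock genes (13), small nucleolar RNA host genes (15), mitosis genes (28), p53 targets (22), Pol II pausing and elongation factors (28) and immediate-early genes (20). Immediate-early genes are induced within minutes of a stimulus. Their median RNA level was 30.1 FPKM and their median covered length at the ends 2650 bp, against 849 FPKM and 1700 bp for ribosomal protein genes. Among them IER2 had 5865 bp at its ends at 69.7 FPKM, FOSB 2153 bp at 0.33 FPKM, and EGR3, a zinc finger transcription factor, 1215 bp at 0.080 FPKM.

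**Figure D5:**
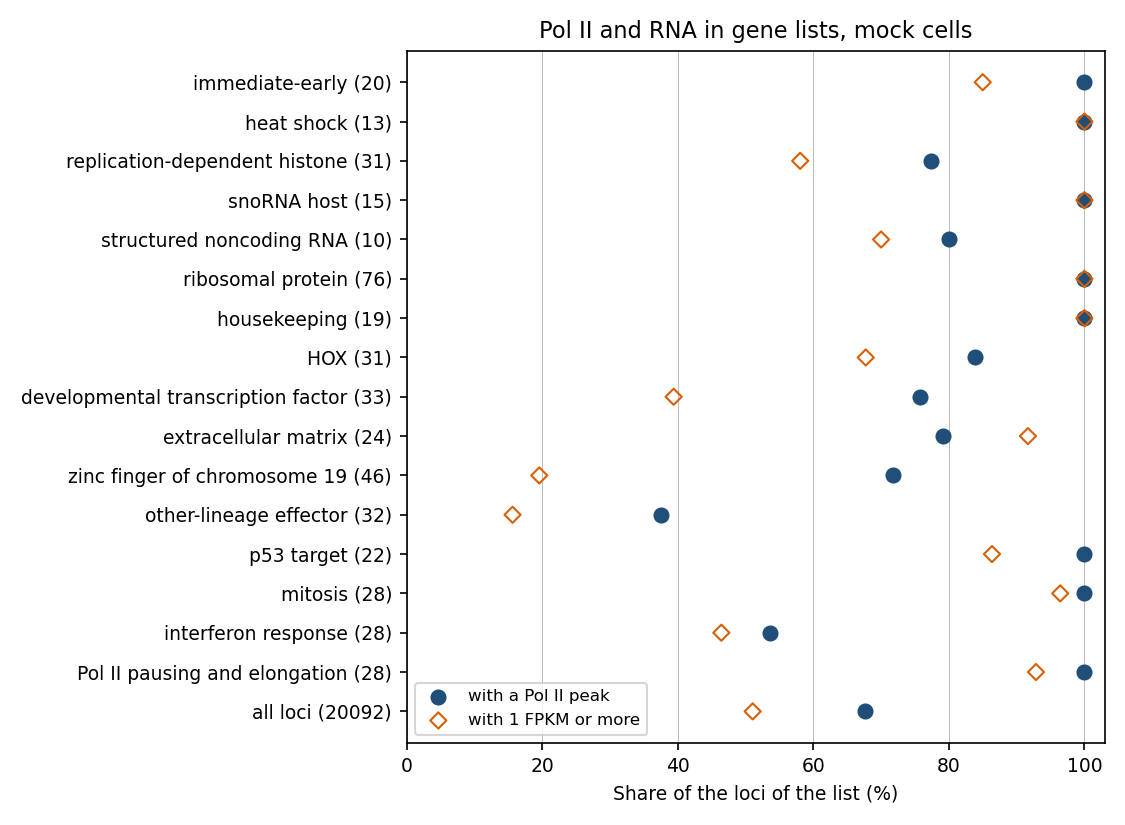
Share of the loci of each list (%) with a Pol II peak (filled circles) and with 1 FPKM or more (open diamonds), with the number of loci in brackets and all loci at the bottom. Zinc finger genes of chromosome 19 and developmental transcription factors have many more loci with Pol II than with RNA, and the extracellular matrix list has fewer. The zinc finger share with Pol II, 71.7%, is near the 67.6% of all loci.

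Developmental transcription factors, which specify lineages in the embryo, had Pol II at 25 of 33 loci and RNA at 13. Of their 13 loci with little or no RNA, 7 had Pol II, compared with 20.3% of such loci in general. These were SOX1, FOXA1 with 700 bp, GATA6 and PAX3 with 600 bp each, NEUROG1 and SIM1 with 200 bp each, and NEUROD1 with 100 bp, which is the step of the peak list. Zinc finger genes of chromosome 19, many of which repress transposable elements, had Pol II at 33 of 46 loci and RNA at 9. Their share with Pol II, 71.7%, was near the 67.6% of all loci. Of their 18 loci with little or no RNA, 6 had Pol II. ZNF808 had 1100 bp at 0.14 FPKM and ZNF347 1300 bp at 0.37 FPKM. Both lie between 0.1 and 1 FPKM, where 72.4% of all loci had Pol II. Effector genes of other lineages, such as albumin or globin genes, had Pol II at 12 of 32 loci, and 18 of their 21 loci with little or no RNA had none. HOX loci had Pol II at 26 of 31. Replication-dependent histone genes, whose messages end in a stem-loop in place of a poly(A) tail, had Pol II at 24 of 31 and RNA at 18. H1-4 had 3200 bp of Pol II at 0.41 FPKM, and H1-1 1900 bp at 0.069 FPKM. H2BC5, at 19.3 FPKM, lies within 2 kb of H1-4, so Pol II there can belong to either.

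Interferon response genes were the list with the most RNA loci lacking Pol II, 5 of 13, compared with 5.85% of all loci with RNA. They were BST2, which tethers budding virions, at 10.6 FPKM, the IFI27 locus at 5.04 FPKM, IFI44 at 2.77 FPKM, IFIT3 at 1.78 FPKM and OAS1, which synthesises the activator of RNase L, at 1.39 FPKM. After EP400 siRNA their RNA levels were higher, at 40.1 FPKM for BST2, 142 FPKM for the IFI27 locus, 22.8 FPKM for IFI44, 26.3 FPKM for IFIT3 and 23.6 FPKM for OAS1. The Pol II list after EP400 siRNA also held 0 bp at each of the 5. In the extracellular matrix list 22 of 24 loci had RNA and 19 had Pol II. COL3A1, COL5A2 and COL6A3, which encode fibrillar and microfibrillar collagen chains, had 5.71, 5.16 and 9.70 FPKM without Pol II. COL1A1, by contrast, had 376 FPKM with 2601 bp at its ends.

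The labelled cell type was checked with marker lists. Of 13 osteoblast-lineage marker loci 9 had RNA, led by VIM, COL1A1, SPARC at 229 FPKM and BMP4 at 118 FPKM, while RUNX2 was at 1.51 FPKM, COL1A2 at 0.011 FPKM and IBSP at 0. The osteoblast transcription factor SP7 had 0.014 FPKM with 1841 bp of Pol II at its left end and 1000 bp at its right end, and the nearest other locus lay 4947 bp away. Of 11 blood cell marker loci only CD68 reached 1 FPKM, at 10.1. Epithelial markers reached it at 4 of 11 loci, KRT18 and KRT8 among them, and neural markers at 6 of 9, beside 51.1% of all loci. Other genes shared the locus at 3 of the neural loci (SYN1, SNAP25 and SOX10) and 2 of the epithelial ones. The same held for 4 of the osteoblast-lineage loci, VIM and SPARC among them.

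The discordant classes were looked up in the libraries made after EP400 siRNA, which differ in treatment and are no replicate. Of the 1247 loci with Pol II and little or no RNA in mock cells, 69.2% had Pol II after EP400 siRNA, 80.6% stayed under 0.1 FPKM, and 2 reached 1 FPKM. Of 599 loci with RNA and no Pol II that could be read there, 7.18% had Pol II and 83.6% had 1 FPKM or more, so 78.3% met the same description. For loci with both, that share was 89.3%, and for those with neither it was 84.4%. It was lowest, at 54.9%, for the 1247 loci with Pol II and little or no RNA. The Pol II list after EP400 siRNA was also shorter, with 20987 peaks against 30760 in mock cells.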

How the data were processed

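FPKM with lower and upper confidence limits were deposited by the authors per transcript row, per the file headers. Bowtie 0.12.9, TopHat2 2.0.8, Cuffdiff 2.0.2 and hg19 are named in the submitters' processing notes. The sources used here give no peak caller, threshold or control, and no counting annotation. ChIP peaks were deposited as start and end only, in steps of 100 bp (50 bp for EP400), with no X or Y but with 23 and 24, which were taken as X and Y. No source states this, and all values on X rest on it. Depth is unknown, and 1 library per measurement allows no p-value.

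Rows under 200 nt and rows with a failed mock status were dropped, which with loci outside chromosomes 1 to 22, X and Y left 20092 loci. Of these, 19716 had a symbol in RefSeq tables. Interiors are loci without their 2 kb end windows. Log2 values used a pseudocount of 0.1, and loci are isolated with no other locus within 10 kb. Among left-out loci, 53 of 54 with a failed row (PKM and LDHA among them) had Pol II.

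Named loci have a symbol and are the 12 with the highest FPKM and no Pol II, the 12 isolated loci under 0.1 FPKM with the most Pol II, the 10 with the highest covered interior share (interior of 5 kb or more), the 10 with the highest FPKM, and list members by Pol II and FPKM; others are said to be chosen later. A locus that the rule names is not reported here. Members and the 20 lists were chosen with earlier results of these data known. Overlap code was tested on simulated data. Python 3.11.15, numpy 2.4.6, pandas 2.3.3, scipy 1.17.1, statsmodels 0.14.6 and matplotlib 3.10.9 were used.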

Additional observations from a re-analysis of the deposited data

How the results depend on the processing

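No paired analysis was possible because each condition had 1 library per measurement. Of 69 alternative values 38 stayed the same and 31 moved. No rank correlation and no difference of medians changed sign. Counts and shares have no sign to reverse and could only be called the same or moved. Counts are called moved past 1.5 times, shares outside their interval, and rank correlations past 0.05. Loci with RNA and no Pol II numbered 238 with RNA at 5 FPKM or more, 1128 with the Pol II peaks of median width or more, 1314 with the mock peaks also in the EP400 siRNA list, 1030 with at least 500 bp of Pol II and 309 with no other locus within 10 kb. Loci with little or no RNA and Pol II numbered 302 at exactly 0 FPKM, 2807 under 0.5 FPKM, 623 with the wider peaks, 702 with the shared peaks, 644 with at least 500 bp and 566 with no other locus within 10 kb. Fewer peaks or fewer loci enter by construction in the last settings, so a count can fall while its share rises. With no other locus within 10 kb, RNA without Pol II made up 9.11% of 3391 loci with RNA, against 5.85% in the main setting. With RNA at 5 FPKM or more it made up 3.69% of 6445. The share of loci with little or no RNA that had Pol II, 20.3%, was 15.3% with no other locus within 10 kb. It was 8.81% at exactly 0 FPKM and 33.1% under 0.5 FPKM. The share with Pol II at an end in the highest and the lowest quintile, 93.5% and 31.3%, was 92.2% and 27.1% with windows of 1 kb, 95.1% and 38.9% with 5 kb, 90.1% and 19.2% with the wider peaks, 87.6% and 21.4% with the shared peaks, and 86.9% and 19.8% with no other locus within 10 kb. The rank correlation of interior coverage, 0.35, was 0.42 with windows of 1 kb, 0.29 with the wider peaks and 0.26 with the shared peaks, and that of the ends stayed between 0.64 and 0.69. The difference of median log2 levels between loci with Pol II at an end and with none, 5.34, was 8.02 and 2.37 with pseudocounts of 0.01 and 1, and 1.42 over loci of 1 FPKM or more. 3 settings were chosen after seeing the data. With X and Y peaks left unmatched, 899 loci had RNA and no Pol II and the highest quintile stood at 90.8%. Without copied and intronless loci, 369 did, and the highest and lowest quintiles stood at 95.1% and 35.1%. Without X and Y loci every value was close to the main one. The cause of each shift was not tested. Unknown depth limits any statement on loci without a peak.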
